A study of Mus musculus with 9 samples.

Results

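Wnt2b, Wnt3, Wnt3a, Wnt4, Wnt6, Wnt7b, Wnt9a, Wnt9b, Wnt10a and Wnt10b are 10 of the 54532 genes whose reads were counted in lambdoidal junction tissue, and 10 of the 19 Wnt genes among them. They were taken by name, as ligands of canonical Wnt signalling that have been linked to facial epithelium. The rule for choosing them uses names and no measured value, but earlier results of these data were known when they were chosen. Wnt proteins are secreted, lipid-modified signals. The acyltransferase Porcn attaches the lipid, Wls carries the protein to the cell surface, and on the receiving cell a Frizzled receptor with Lrp5 or Lrp6 holds back the breakdown of beta-catenin, which then works with Tcf and Lef factors on target genes such as Axin2. In the face, surface epithelium is a known source of Wnt ligands for the mesenchyme below it, and mouse embryos without Wnt9b can have a cleft lip.

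The libraries were made from the lambdoidal junction, where the maxillary and both nasal prominences fuse into the upper lip and primary palate. Wild-type C57BL/6J embryos were taken at embryonic day (E) 10.5, 11.5 and 12.5, with 3 libraries at each stage, and every library was made from the pooled tissue of several embryos, so that p-values measure the spread between pools. The total count was 16581009–20836804 per library. Levels are CPM (counts scaled to a common library size after TMM normalization), given as the mean ± SD of n = 3 libraries, or CPM per kb of gene length where genes are compared with each other. In bulk tissue, fewer cells of a type and less RNA per cell cannot be told apart, and these libraries do not show which tissue layer made a ligand.

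E10.5 replicate 3 stood apart from the other libraries of its stage. All 13 general epithelial markers (among them Epcam and Cdh1) were highest in that library, and their summed level was 976 CPM there against 574 and 655 CPM in replicates 1 and 2. The 12 markers of facial mesenchyme summed to 1405 CPM there against 2764 and 2768 CPM, and 11 of them were lowest in it. Its deviations from the mean of its stage correlated with the GC content of genes at Spearman's rho = −0.55 over 16363 genes, which are not independent, and those of replicates 1 and 2 at 0.44 and 0.47. The tests of the ligands against E10.5 were therefore refitted without it.

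The promoters of 8 of the 10 ligands (Wnt2b, Wnt3, Wnt3a, Wnt4, Wnt6, Wnt9a, Wnt9b and Wnt10b) were read from the RefSeq promoter table of GRCm38.p6, as windows of 300 bases from 250 bases before to 50 bases after the start of each gene. The windows shown are those of the neighbouring pair Wnt3a and Wnt9a, of Wnt10b, which after Wnt3a had the largest fold changes against E10.5, of Wnt3, which alone held a TCF/LEF motif, and of Wnt6, which had the highest level. Capitals mark GGGCGG, the SP/KLF motif, as read on either strand, and the TCF/LEF motif CTTTGTT in Wnt3.
Wnt3a (chr11:59290702-59291001, minus strand): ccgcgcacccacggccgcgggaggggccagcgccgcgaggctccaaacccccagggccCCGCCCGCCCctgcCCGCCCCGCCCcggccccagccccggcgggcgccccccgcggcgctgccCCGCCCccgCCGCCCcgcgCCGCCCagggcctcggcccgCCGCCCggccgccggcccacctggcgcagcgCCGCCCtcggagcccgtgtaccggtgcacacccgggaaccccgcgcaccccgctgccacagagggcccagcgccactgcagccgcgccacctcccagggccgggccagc
Wnt9a (chr11:59306680-59306979, plus strand): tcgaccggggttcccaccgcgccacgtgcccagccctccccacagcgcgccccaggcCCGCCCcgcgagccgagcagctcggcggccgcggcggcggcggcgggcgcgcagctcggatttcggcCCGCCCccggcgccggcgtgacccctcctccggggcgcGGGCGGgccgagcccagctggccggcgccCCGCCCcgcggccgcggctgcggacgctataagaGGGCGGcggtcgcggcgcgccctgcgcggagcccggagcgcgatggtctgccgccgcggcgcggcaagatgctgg
Wnt10b (chr15:98778101-98778400, minus strand): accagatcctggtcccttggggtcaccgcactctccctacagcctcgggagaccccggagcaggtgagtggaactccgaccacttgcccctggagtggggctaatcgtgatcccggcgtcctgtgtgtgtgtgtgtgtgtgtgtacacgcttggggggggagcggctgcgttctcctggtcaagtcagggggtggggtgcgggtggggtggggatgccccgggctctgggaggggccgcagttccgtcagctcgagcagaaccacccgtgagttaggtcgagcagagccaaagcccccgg
Wnt3 (chr11:103773925-103774224, plus strand): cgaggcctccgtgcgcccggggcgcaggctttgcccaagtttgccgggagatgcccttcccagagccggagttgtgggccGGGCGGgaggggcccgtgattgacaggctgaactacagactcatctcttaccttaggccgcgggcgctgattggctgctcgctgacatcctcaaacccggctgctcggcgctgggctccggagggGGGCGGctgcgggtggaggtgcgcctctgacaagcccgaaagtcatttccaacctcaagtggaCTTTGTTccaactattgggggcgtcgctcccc
Wnt6 (chr1:74771642-74771941, plus strand): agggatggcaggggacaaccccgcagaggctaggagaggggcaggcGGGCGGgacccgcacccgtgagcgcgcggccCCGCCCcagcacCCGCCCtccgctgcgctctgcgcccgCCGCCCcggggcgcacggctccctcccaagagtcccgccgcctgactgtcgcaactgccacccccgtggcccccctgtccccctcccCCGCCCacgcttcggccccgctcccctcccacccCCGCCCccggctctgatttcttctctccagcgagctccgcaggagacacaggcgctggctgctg

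GGGCGG was present on either strand in 7 of these 8 windows and in 35.7% of all 32851 windows of the table, with overlapping matches counted separately. There were 9 matches in the Wnt3a window, 8 in Wnt4, 6 in Wnt6, 5 in Wnt9a and none in Wnt10b. The TCF/LEF motif, searched on both strands as CTTTG followed by AA, AT, TA or TT, was found in 1 of the 8 windows, that of Wnt3, where it began 18 bases after the start, and in 16.9% of all windows. CCAAT was in 3 of the 8 windows (Wnt2b, Wnt3 and Wnt9b) and in 37.4% of all windows, and TATAAA in 0 of 8 and 13.6%. The median GC content was 78.2% over the 8 windows and 52.7% over all windows, and ranged from 65.7% (Wnt3) to 86.3% (Wnt3a). A match is a run of letters in this window and not evidence of binding.

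To ask how the ligands changed over the whole time course, E12.5 was compared with E10.5. Wnt3a, Wnt10b, Wnt10a, Wnt9a and Wnt4 were upregulated at E12.5, none was downregulated, and Wnt6 had almost the same level at both stages. DEGs had to reach an adjusted p of 0.05 or less (quasi-likelihood test of edgeR, adjusted by Benjamini-Hochberg) and a log2 fold change of 1 or more in either direction. By this rule 5 of the 10 ligands were upregulated DEGs, where 9.97% of the 15899 genes tested were. The adjusted p-value alone was met by 8 ligands, all of them higher at E12.5, where 14.0% of genes were. In the same 8 ligands the 3 libraries of E12.5 all lay above those of E10.5, as they did in 22.0% of genes. The median log2 fold change was 1.24 over the 10 ligands and −0.0063 over all genes tested. The 0 downregulated ligands stand beside 5.08% of the genes tested that were downregulated DEGs. The count of ligands lower was also 0 at an unadjusted p-value under 0.05 and 0 with DESeq2. Without E10.5 replicate 3, 6 ligands were upregulated DEGs against 10.4% of genes, with Wnt3 added (log2 fold change 1.02, adjusted p = 0.00489), and 7 met the adjusted p-value against 16.6%.

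**Figure D1:**
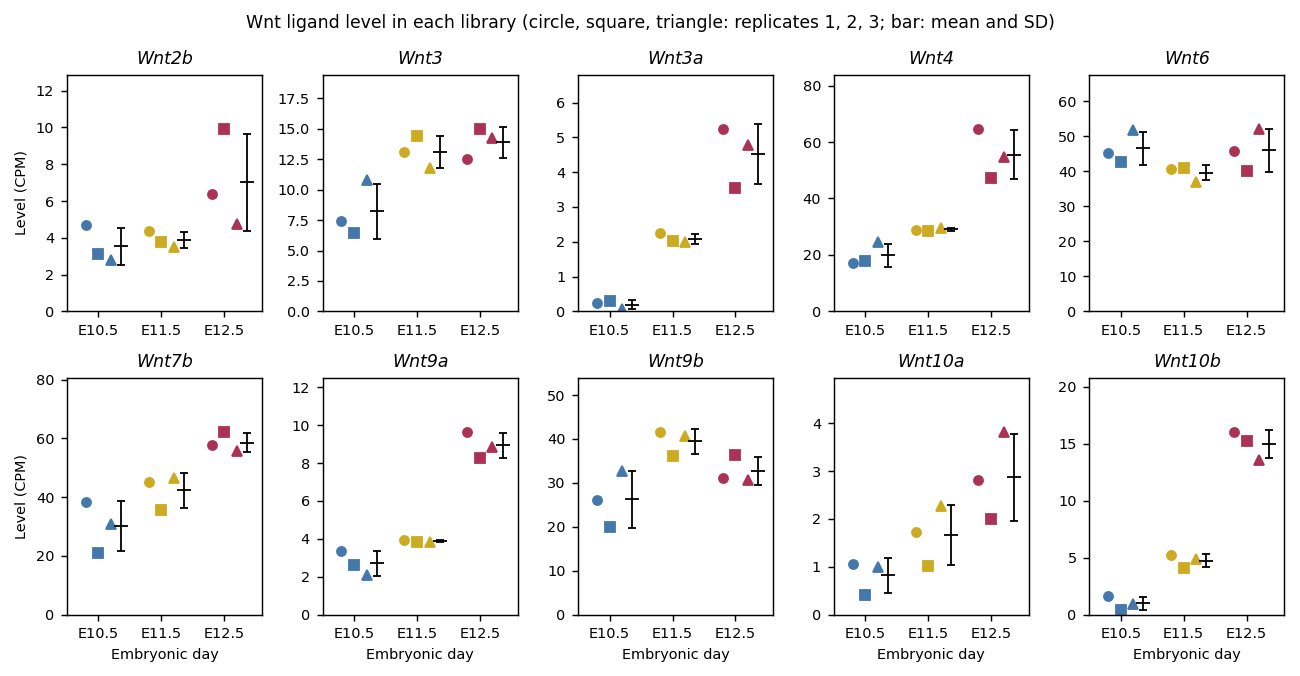
Level of each Wnt ligand in CPM (vertical axes, each from 0) in the 9 libraries by embryonic day, with the mean and SD of the 3 libraries beside the points. Wnt3a and Wnt10b climbed from stage to stage without overlap, the E10.5 and E12.5 points of Wnt6 overlapped, and Wnt9b was highest on average at E11.5.

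The lowest ligand at E10.5, Wnt3a, had the largest fold change of the 10 in both comparisons with E10.5. Wnt3a maintains the progenitors of the trunk and tail and of the hippocampus in the mouse. It had 4, 5 and 1 counts in E10.5 replicates 1, 2 and 3, then 42, 42 and 38 at E11.5 and finally 93, 66 and 80 at E12.5. The 3 stages did not overlap. The mean level was 0.196 ± 0.119 CPM to begin with, 2.09 ± 0.144 CPM a day later and 4.52 ± 0.867 CPM at the last stage. The 10 counts of E10.5 have a 95% Poisson interval of 4.80–18.4, against 209.7–271.3 for the 239 counts of E12.5. These intervals cover counting error only, since reads and not molecules were counted. From E10.5 to E12.5 Wnt3a rose by a log2 fold change of 4.47 (SE 0.47, adjusted p = 7.04e-05), a fold change of 22.1 that rests on the few E10.5 counts, and without E10.5 replicate 3 by 4.07 (SE 0.43, adjusted p = 9.48e-05). The rise was already a DEG at E11.5 vs. E10.5 (log2 fold change 3.36, SE 0.44, adjusted p = 0.00383), and remained one without E10.5 replicate 3 (2.96, SE 0.44). At E12.5 vs. E11.5 the log2 fold change was 1.10 (SE 0.24, adjusted p = 0.0137), and Wnt3a was no longer a DEG there when E11.5 replicate 2 (adjusted p = 0.0683), E11.5 replicate 3 (0.0652) or E12.5 replicate 1 (0.0706) was left out, or when the GC trend of each library was removed (log2 fold change 0.99).

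Wnt10b, a ligand of hair and mammary buds and of bone-forming cells, rose at both steps as well. Its counts were 27, 7 and 15 at E10.5, followed by 98, 85 and 92 at E11.5 and by 284, 283 and 228 at E12.5, and the stages did not overlap. The level went from 0.979 ± 0.600 to 4.73 ± 0.600 and 14.9 ± 1.23 CPM. The log2 fold change was 2.27 (SE 0.41, adjusted p = 0.0124) for the first step, from E10.5 to E11.5, and 1.65 (SE 0.17, adjusted p = 2.26e-04) for the second. Over both steps it was 3.93 (SE 0.385, adjusted p = 4.48e-05), a fold change of 15.3, and 3.90 without E10.5 replicate 3. Without E11.5 replicate 1 or E11.5 replicate 3 the first step had adjusted p-values of 0.0734 and 0.0613, with log2 fold changes of 2.19 and 2.26. It was 2.24 (adjusted p = 6.83e-04) without E10.5 replicate 3.

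Wnt10a, the paralogue of Wnt10b and a ligand of teeth, hair and other ectodermal organs, rose over both steps from a low level. It had 18, 7 and 16 counts at E10.5, followed by 32, 21 and 43 at E11.5 and by 50, 37 and 64 at E12.5. The libraries of E10.5 and E12.5 did not overlap, and those of E11.5 overlapped with both. The log2 fold change of E12.5 vs. E10.5 was 1.81 (SE 0.44, adjusted p = 0.0125), and it was 1.55 with an adjusted p of 0.0647 without E12.5 replicate 3 and 1.96 (adjusted p = 0.0128) without E10.5 replicate 3. Neither single step passed the test (log2 fold changes 1.02 and 0.78, adjusted p = 0.196 and 0.165), and the first was 1.17 (adjusted p = 0.0771) without E10.5 replicate 3.

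Wnt9a and Wnt4 passed the test in the second step but not in the first. Wnt9a, a ligand of developing joints, had 57, 45 and 34 counts at E10.5, followed by 73, 80 and 73 at E11.5 and by 171, 154 and 149 at E12.5. Its level of 3.87 ± 0.0468 CPM at E11.5 became 8.93 ± 0.667 at E12.5 (log2 fold change 1.20, SE 0.17, adjusted p = 0.00157), and in E11.5 vs. E10.5 the log2 fold change was 0.52 (adjusted p = 0.198), or 0.37 (adjusted p = 0.217) without E10.5 replicate 3. Wnt4, which acts in kidney tubules and the female reproductive tract, had 290, 307 and 396 counts at E10.5, followed by 539, 593 and 564 at E11.5 and by 1147, 879 and 917 at E12.5, with no overlap between stages. From E11.5 to E12.5 it rose by a log2 fold change of 0.93 (SE 0.14, adjusted p = 0.00191), just short of the fold threshold. Against E10.5, the E12.5 log2 fold changes were 1.73 (SE 0.27, adjusted p = 9.48e-04) for Wnt9a and 1.49 (SE 0.21, adjusted p = 5.48e-04) for Wnt4. They were 1.59 and 1.68 without E10.5 replicate 3, both still DEGs, and in E11.5 vs. E10.5 Wnt4 then passed the test with 0.74 (adjusted p = 9.97e-05). The difference between the steps did not pass the test for either gene (adjusted p = 0.516 for Wnt9a and 0.662 for Wnt4).

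Wnt7b, Wnt3 and Wnt2b had smaller differences. Wnt7b, a ligand of lung and kidney epithelium, had 646, 364 and 500 counts at E10.5, followed by 837, 739 and 881 at E11.5 and by 1023, 1152 and 935 at E12.5. The libraries of E12.5 lay above all others, and those of the earlier stages overlapped. It rose over both steps by 0.96 on the log2 scale (SE 0.22, adjusted p = 0.00947), and over the second step alone by 0.46 (SE 0.14, adjusted p = 0.0486). The first of these was 0.99 (adjusted p = 0.0108) without E10.5 replicate 3. Of the exon bases of Wnt7b, 6.61% are shared with the antisense gene AU022754, which had 1–13 counts per library. Since no strand setting is given for the counting, reads of overlapping genes cannot be told apart.

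Wnt3, which is needed for the primitive streak, had 125, 111 and 174 counts at E10.5, followed by 244, 300 and 224 at E11.5 and by 222, 278 and 239 at E12.5. Both later stages lay above E10.5 and overlapped with each other. Wnt3 rose by 0.77 over both steps (SE 0.25, adjusted p = 0.0424), with a log2 fold change of 0.08 (adjusted p = 0.757) in the second. In the first it was 0.68 (adjusted p = 0.0846), and without E10.5 replicate 3 it was 0.93 (SE 0.15, adjusted p = 5.07e-04). Wnt2b, a ligand of the lung field and of the eye margin, had 79, 54 and 45 counts at E10.5, followed by 81, 79 and 66 at E11.5 and by 113, 184 and 80 at E12.5. Its E12.5 vs. E10.5 log2 fold change was 0.997 (SE 0.33), with an adjusted p just under the threshold (0.04995) that became 0.0810 without E10.5 replicate 3.

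Wnt6 and Wnt9b had no difference between stages that passed the test. Wnt6, a ligand of surface ectoderm, had 762, 734 and 837 counts at E10.5, followed by 757, 852 and 704 at E11.5 and by 813, 743 and 873 at E12.5. Its log2 fold changes were −0.23 (SE 0.12) in the first step and 0.21 (SE 0.13) in the second, and −0.01 (SE 0.18) over both. In CPM, all E11.5 libraries lay below all E10.5 libraries. Wnt9b had 439, 342 and 530 counts at E10.5, followed by 772, 753 and 774 at E11.5 and by 552, 675 and 515 at E12.5. All E11.5 libraries were above E10.5 (39.5 ± 2.88 against 26.2 ± 6.49 CPM), and E12.5 overlapped with both (32.7 ± 3.17 CPM). The log2 fold change in E11.5 vs. E10.5 was 0.59 (SE 0.18, adjusted p = 0.0770), and without E10.5 replicate 3, the library with the highest E10.5 level, it was 0.79 (SE 0.12, adjusted p = 2.33e-04). Its E12.5 vs. E10.5 log2 fold change was 0.33 (adjusted p = 0.298), and 0.52 (adjusted p = 0.0547) without that library, where that of Wnt6 was 0.08.

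In the separate steps, the first had 2 of the 10 ligands (Wnt3a and Wnt10b) as upregulated DEGs, where 3.46% of 15708 genes were. The same 2 were the ones higher at the adjusted p-value alone, against 6.19% of genes. DESeq2 had 5 at that adjusted p-value, where 1274 of the 28669 genes with a p-value in DESeq2 were higher. In 6 ligands the E11.5 libraries all lay above the E10.5 libraries, against 18.4% of genes. Without E10.5 replicate 3, the count of upregulated DEGs was again 2 (4.75% of genes), and 6 ligands met the adjusted p-value (19.6% of genes), with Wnt3, Wnt4, Wnt7b and Wnt9b added. In E12.5 vs. E11.5, 3 ligands (Wnt3a, Wnt9a and Wnt10b) were upregulated DEGs against 4.14% of 15808 genes. At the adjusted p-value alone 5 were higher against 7.61%, and in 6 the E12.5 libraries all lay above the E11.5 libraries against 18.4%. The count of ligands lower was 0 at each step in edgeR, at an unadjusted p-value under 0.05 and in DESeq2. Of all genes tested, 2.61% were downregulated DEGs in the first step and 0.962% in the second. For Wnt9b in E12.5 vs. E11.5 the log2 fold change was −0.28 (adjusted p = 0.185). Under the alternative fits it was −0.38 to −0.22, with a lowest adjusted p of 0.0387. A test of the 3 stages together on all 9 libraries called 8 of the 10, all but Wnt6 (adjusted p = 0.373) and Wnt9b (0.0657), against 28.3% of 16375 genes. Without E10.5 replicate 3 it called 9, with Wnt9b added (adjusted p = 0.00441), against 37.2% of genes.

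Whether a ligand changed more in the second step than in the first was tested on all 9 libraries as the difference between the 2 log2 changes. By edgeR's quasi-likelihood test 0 of the 10 ligands passed, against 1.18% of genes, and 2 had an unadjusted p-value under 0.05, Wnt3a (log2 difference −2.24, SE 0.61, adjusted p = 0.114) and Wnt9b (−0.86, SE 0.31, adjusted p = 0.262). Without E10.5 replicate 3, Wnt9b passed with a log2 difference of −1.10 (SE 0.23, adjusted p = 0.0313), against 2.59% of genes. DESeq2 was not run for this difference.

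**Figure D2:**
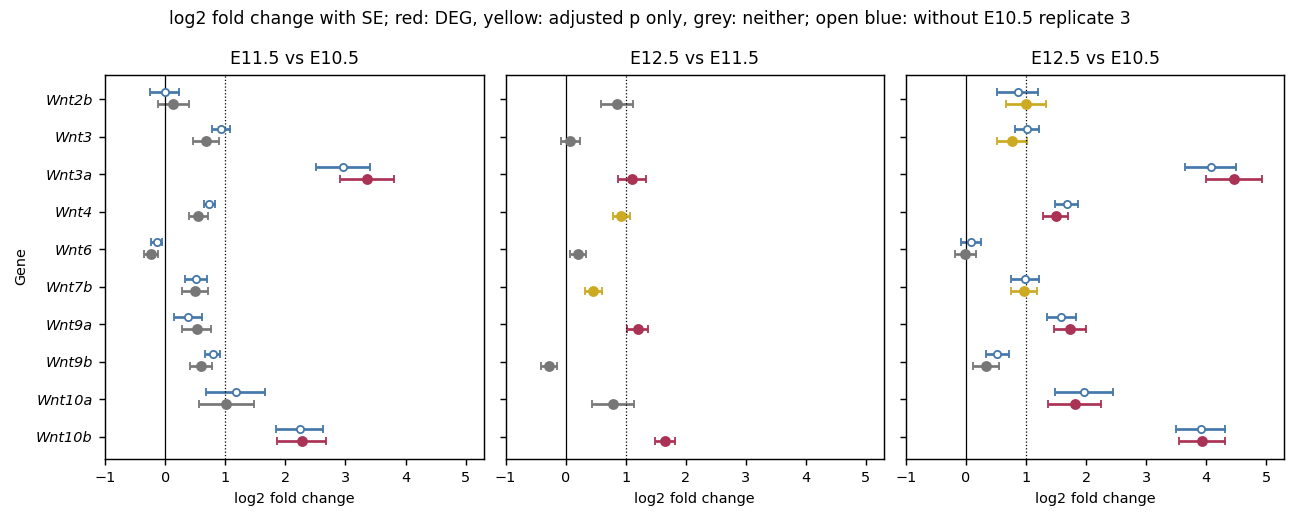
Plot of the log2 fold change (horizontal axes) of each ligand with its SE in the 3 comparisons, with the fold threshold of 1 as a dotted line and open circles for the 2 comparisons refitted without E10.5 replicate 3. Wnt3a and Wnt10b lie to the right of the threshold in all 3 comparisons, and at 4.47 and 3.93 over both steps, and Wnt6 lies near 0.

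Per gene length, Wnt6 was the highest of the 10 ligands at every stage, with means of 21.2 ± 2.17 CPM per kb at the first stage, 18.0 ± 0.992 at the second and 21.0 ± 2.74 at the last. Its libraries did not overlap with those of the next ligand at any stage. The next 3 places were shared by Wnt7b, Wnt9b and Wnt4, whose libraries overlapped with their neighbours in that order at E10.5 (6.15 ± 1.76, 5.80 ± 1.44 and 4.73 ± 0.967 CPM per kb). By E12.5 Wnt4 was second with 13.2 ± 2.06 CPM per kb, and it still overlapped with Wnt7b (11.9 ± 0.664), while Wnt9b was below both (7.24 ± 0.701). Wnt3 took the fifth place at all stages. Wnt10b moved from the ninth place at E10.5 (0.288 ± 0.176 CPM per kb) to the sixth at E12.5 (4.39 ± 0.361), where its libraries overlapped with those of Wnt3 (4.52 ± 0.414). Wnt3a was the lowest at E10.5 (0.0711 ± 0.0432 CPM per kb), and at E12.5 Wnt2b, Wnt3a and Wnt10a overlapped in turn at the bottom of the order (1.67 ± 0.627, 1.64 ± 0.314 and 1.16 ± 0.369).

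The summed level of the 10 ligands went from 42.9 ± 6.14 CPM per kb at E10.5 through 51.5 ± 1.79 a day later to 69.4 ± 2.50 at E12.5, and no library of a later stage was below one of an earlier stage. The mean at E10.5 was 40.1 without replicate 3. Of this sum, Wnt6 made up 49.7% ± 3.30, then 35.1% ± 2.30 and then 30.1% ± 3.16. The share of Wnt4 was 13.5% ± 0.451 at E11.5 against 19.0% ± 2.40 at E12.5, and that of Wnt10b over the 3 stages was 0.655% ± 0.382, 2.70% ± 0.254 and 6.33% ± 0.590. With 3 libraries against 3 an exact permutation test cannot give a p-value below 0.1, so these sums and shares are given as values.

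**Figure D3:**
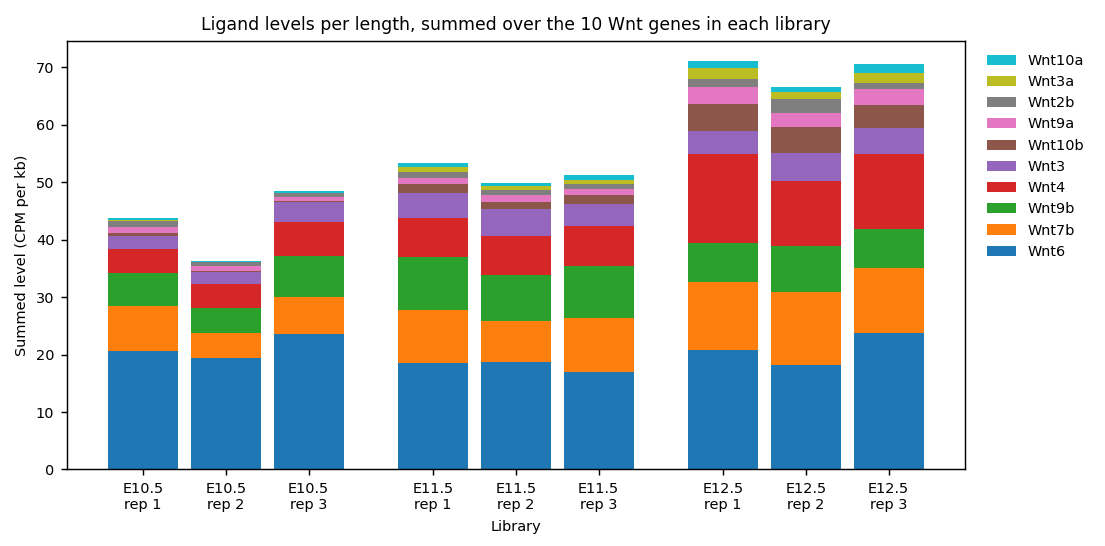
Level per length (vertical axis, CPM per kb) of the 10 ligands stacked in each of the 9 libraries. The summed bars stand at 36.4–48.5, 49.8–53.4 and 66.5–71.1 from the first stage to the last, and the Wnt6 block keeps about its height while the blocks of Wnt4, Wnt7b and Wnt10b grow.

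Levels were also set against the epithelial markers of the same library, which is free of library scaling. The 13 general epithelial markers had summed levels of 574–976, 521–577 and 537–620 CPM at the 3 stages in turn, and none of them was at or under 3 counts in all libraries of a stage. In E12.5 vs. E10.5, 0 of them were upregulated DEGs (0 also at an unadjusted p-value under 0.05 in edgeR, and 0 with DESeq2), and 1, Krt18, was downregulated (log2 fold change −1.02, SE 0.23). In the lower direction 2 met the adjusted p-value, as did 1675 of the 15899 genes tested, and 5 an unadjusted p-value under 0.05 in edgeR. The median log2 fold change of the 13 was −0.31. Without E10.5 replicate 3 that median was −0.090, and 0 of the 13 were DEGs in edgeR. The adjusted p-value was then met by 2, both lower at E12.5, as were 2217 of 16501 genes. The 11 markers of stratifying epithelium (Krt5, Krt14 and others) summed to 239–444, 376–440 and 763–802 CPM, and 6 of them were upregulated DEGs, or 9 without E10.5 replicate 3, where 9.97% and 10.4% of all genes were. The 12 mesenchymal markers summed to 1405–2768, 4343–4853 and 5707–6603 CPM (7 upregulated and 1 downregulated, or 6 and 1 without that library), and the 12 markers of forebrain and eye to 295–401, 106–115 and 123–162 CPM (1 upregulated and 8 downregulated, or 1 and 7), with Rax and Otp at or under 3 counts at E11.5. Of all genes tested, 5.08% were downregulated DEGs, and 1028 of 16501 were without E10.5 replicate 3. The part of the marker changes in the ligands' values was not tested.

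Per 1000 CPM of the general epithelial markers, 6 of the 10 ligands were higher in all E11.5 libraries than in all E10.5 libraries, where 38.1% of all genes tested were. At E12.5 it was 8 against 30.5% of genes, and no ligand was lower at either stage. These counts were again 6 and 8 without E10.5 replicate 3, against 40.2% and 32.0%. From E11.5 to E12.5, 5 ligands were higher, against 13.7% of genes. Wnt3 went from 9.83–12.9 to 21.4–25.1 and then 23.0–26.3. Wnt9b went from 30.3–45.3 to 62.6–79.6 and 49.5–63.9, so that on this scale E12.5 also lay above E10.5. Wnt6 overlapped between all stages (53.1–78.7, 67.2–78.0 and 70.4–85.3). In E10.5 replicate 3, these markers summed to 1.59 times the mean of the other E10.5 libraries. In CPM, Wnt3, Wnt4, Wnt6 and Wnt9b were highest in it, Wnt2b, Wnt3a and Wnt9a were lowest in it, and Wnt7b, Wnt10a and Wnt10b lay between the other libraries. A ratio to epithelial markers does not show that a ligand came from epithelium. By immunofluorescence of E10.5 and E11.5 tissue, the paper reported Wnt3a in the mesenchyme. That stain is of protein and not RNA, and Wnt proteins are secreted, so it does not show which cells made the RNA.

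**Figure D4:**
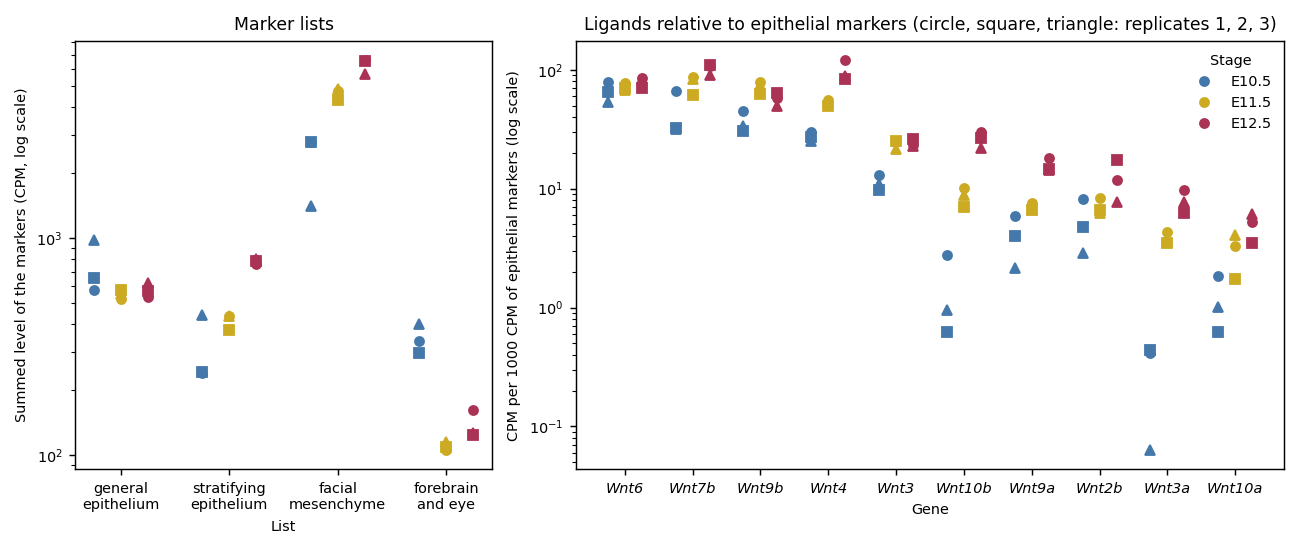
Left, summed CPM of 4 marker lists in each library (log scale); right, each ligand in CPM per 1000 CPM of the 13 general epithelial markers (log scale), coloured by stage. The E10.5 triangle (replicate 3) stands high in epithelial and low in mesenchymal markers, and Wnt3a and Wnt10b separate by stage on the right.

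Of the ligands, 6 lie beside each other in pairs with no annotated gene between them, and Wnt10b lies beside Wnt1 (coordinates of GRCm38). Wnt3a (chr11:59248033-59290752, minus strand) and Wnt9a (chr11:59306928-59333552, plus strand) run apart from a gap of 16.2 kb. The ratio of Wnt3a to Wnt9a, per length and within a library, was 0.0355–0.134, 0.628–0.694 and 0.517–0.656 from the first stage to the last. The ratios of E11.5 and E12.5 overlapped, and both lay above those of E10.5. Wnt9b (chr11:103727364-103749821, minus strand) and Wnt3 (chr11:103774150-103817957, plus strand) also run apart, from 24.3 kb, and had a ratio of 2.07–2.39, 1.71–2.35 and 1.47–1.69, with E12.5 below E10.5 and E11.5. Wnt6 (chr1:74771892-74785322) and Wnt10a (chr1:74791516-74804179) lie 6.2 kb apart on the plus strand, and Wnt10a was 0.00847–0.0210 of Wnt6 at E10.5 and 0.0442–0.0651 at E12.5. Wnt1, 11.7 kb from Wnt10b (chr15:98770712-98778150) and a ligand of midbrain and neural crest, had 4, 4 and 3 counts at E10.5 and 0 in each of the 6 later libraries.

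The ratios of paralogues were taken in the same way. Wnt10a was 0.919–1.47 of Wnt10b per length at E10.5, then 0.340–0.644 and then 0.180–0.387, with no overlap between E10.5 and the later stages. Wnt9a was 0.0871–0.179 of Wnt9b at E10.5, then 0.128–0.144 and then 0.310–0.420. Wnt3a was at most 0.0502 of Wnt3 at E10.5 and 0.264–0.467 at E12.5.

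For the 5 ligands that were DEGs, the 2 protein-coding genes whose log2 CPM correlated best with theirs over the 9 libraries were taken from 14116 genes. The libraries of a stage share that stage, so these values describe a common course over stages. For Wnt3a they were Dkk1 (Pearson's r = 0.994), a secreted Wnt antagonist, and Aldh1a2 (0.993), which makes retinoic acid. For Wnt4 they were S100a11 and Pmp22, for Wnt9a Gpr27 and Lmna, for Wnt10b Alcam and Fst, an activin antagonist, and for Wnt10a Casp8 (0.964) and Zfp286. The mean level of Dkk1 went from 9.77 ± 1.99 to 43.7 ± 7.92 and then 76.6 ± 7.56 CPM.

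The other genes of the pathway were described by role in E12.5 vs. E10.5, where 9.97% of genes were upregulated and 5.08% downregulated DEGs. Of the 9 genes for acylation and secretion, 0 were DEGs in edgeR or DESeq2, and 2 had an unadjusted p-value under 0.05, of which Snx3, a sorting nexin, met the adjusted p-value (log2 fold change 0.55, adjusted p = 0.0479). The log2 fold change was −0.18 (SE 0.27, adjusted p = 0.676) for Porcn and 0.43 (SE 0.19, adjusted p = 0.126) for Wls. Of the 12 Frizzled and Lrp receptors, 2 were upregulated and 3 downregulated. Fzd10 rose by 2.17 on the log2 scale, while Fzd5 fell by 3.18 and Fzd4 fell by 1.51. Reads of Fzd5 may include those of an overlapping gene on the other strand, with which it shares 17.8% of its exon bases.

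Most of the 14 genes listed as secreted antagonists code for proteins that bind Wnt ligands or the Lrp receptors. Of the 14, 10 could be tested, and 6 were upregulated and 0 downregulated (0 lower also at an unadjusted p-value under 0.05 in edgeR, and 0 with DESeq2). The upregulated ones included Wif1 (log2 fold change 3.87, SE 0.37), Dkk1 (2.98, SE 0.21) and Dkk3 (1.15, SE 0.20). The median log2 fold change of the 10 was 1.21. Of the 7 R-spondins and their receptors, which raise the number of Frizzled receptors at the cell surface, 3 were upregulated, Rspo3 (3.49, with 13.1% of its exon bases shared with another gene), Lgr6 (2.79) and Rspo2 (1.21), and 2 without E10.5 replicate 3.

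Among 18 transducers inside the cell, 1 was upregulated and none downregulated. That gene was Lef1, a nuclear partner of beta-catenin, with a log2 fold change of 2.39 (SE 0.18, adjusted p = 7.11e-06), and 13.8% of its exon bases are shared with another gene. Of the 11 target and feedback genes, 5 were upregulated, among them Apcdd1 (2.79), Nkd2 (2.19) and Nkd1 (1.89, SE 0.25), and Ccnd1 was downregulated (−1.35, SE 0.20, with 23.4% of its exon bases shared with another gene). Axin2, the common read-out of canonical signalling, rose by 0.61 (SE 0.19, adjusted p = 0.0378), which is below the fold threshold. In the first step Axin2 rose by 0.84 (SE 0.13, adjusted p = 0.00678), and in that step 5 of the 11 genes were upregulated DEGs (3.46% of all genes were) and 0 were downregulated DEGs in edgeR or DESeq2 (2.61% of all genes were). At the adjusted p-value alone Ccnd1 (−0.56, adjusted p = 0.0127) and Myc (−0.75, adjusted p = 0.0145) were lower. In E12.5 vs. E11.5, 0 of the 11 were DEGs in either direction in edgeR or DESeq2. Of all genes, 4.14% were upregulated and 0.962% downregulated DEGs. At the adjusted p-value alone Nkd1 (0.54, adjusted p = 0.0409) and Nkd2 (0.86, adjusted p = 0.00238) were higher, and Ccnd1 (−0.80, adjusted p = 0.0105) was lower. Of 15808 genes, 1203 were higher and 723 lower at it. At an unadjusted p-value under 0.05, 4 of the 11 were higher and 1 lower.

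**Figure D5:**
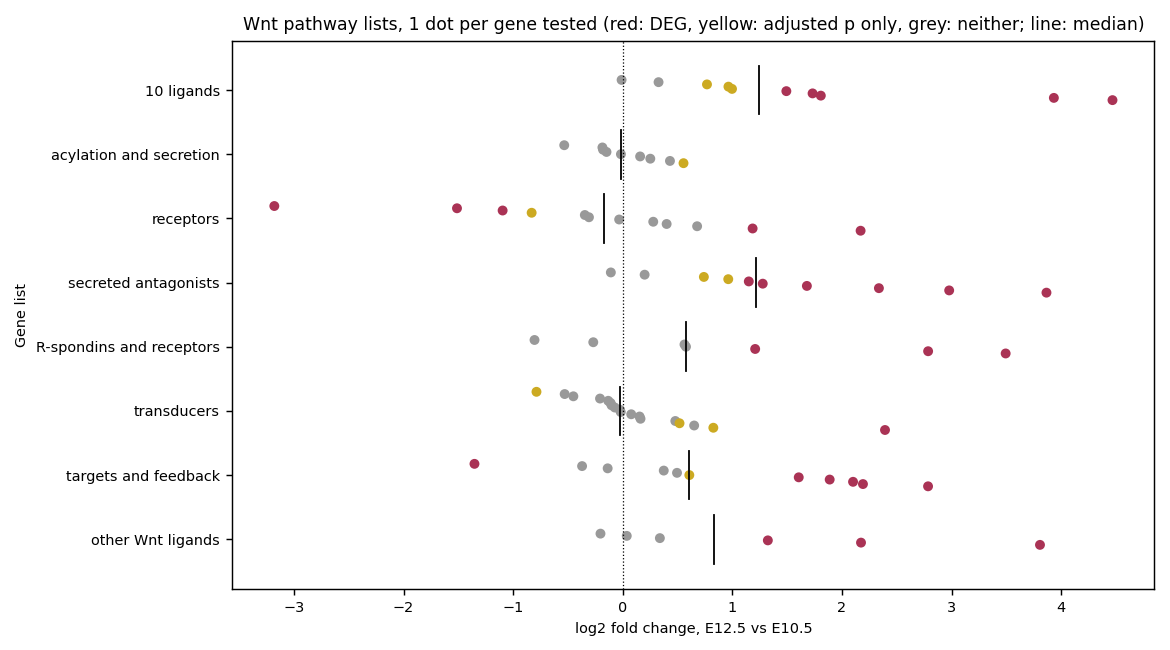
Plot of the log2 fold change in E12.5 vs. E10.5 (horizontal axis) of each gene tested in the 10 ligands and in 7 lists of other Wnt pathway genes, with the median of each list as a line. The medians of the ligands and of the secreted antagonists stand at 1.24 and 1.21, and those of acylation and secretion and of the transducers lie near 0.

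Of the 9 other Wnt genes in the table, 6 could be tested in E12.5 vs. E10.5, and 3 were upregulated and 0 downregulated DEGs. With DESeq2, 1 of the 9 was a downregulated DEG, as were 939 of the 29039 genes with a p-value in DESeq2. Wnt5a, the main ligand of non-canonical signalling and known from facial mesenchyme, was at 122 ± 8.10 CPM at E10.5 and 547 ± 94.0 at E12.5 (log2 fold change 2.17, SE 0.19). Wnt16 went from 0.398 ± 0.0391 CPM to 5.63 ± 0.598 (3.81, SE 0.34), and Wnt11 rose by 1.32 (SE 0.33). Wnt7a had a log2 fold change of 0.04 over both steps. It was a downregulated DEG in the first (−1.61, adjusted p = 0.0326) and an upregulated DEG in the second (1.63, adjusted p = 0.00605). Of their exon bases, Wnt5a shares 4.58% and Wnt11 8.80% with other genes. Without E10.5 replicate 3, 3 of these 6 were again upregulated, as were 7 of the 11 antagonists then tested, and the counts of DEGs among the secretion genes, receptors, transducers and target genes were the same as with it.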

How the data were processed

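RNA-seq libraries of mouse lambdoidal junction tissue at 3 stages, with 3 libraries each, were analysed. Per the labels, the authors used HISAT2 2.0.5 and the mm10 build, and they deposited whole-number read counts per gene, which are not normalized, for 54532 genes. The authors also deposited FPKM values, used here only to recompute the summed level, and fold changes and p-values of their own comparisons, which were not used. The strand setting and the treatment of reads with several positions are not given in the sources used here.

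Groups were taken from the stage labels. For every comparison of a pair of stages, a model was fitted to the 6 libraries concerned in R 4.3.3 with edgeR 4.0.16 (filterByExpr, TMM, quasi-likelihood test, Benjamini-Hochberg adjustment over all genes tested), and the 3 stages together and the difference between steps on all 9. SE values were derived from the log2 fold change and the F statistic. DESeq2 1.42.0 was used as an alternative, and Python 3.11.15 with pandas 2.3.3, numpy 2.4.6, scipy 1.17.1 and matplotlib 3.10.9 for tables and figures. On simulated counts, the recovered share of genes changed by a log2 fold change of 1 was 51% in E11.5 vs. E10.5 (15708 genes), 65% in E12.5 vs. E10.5 (15899 genes) and 60% in E12.5 vs. E11.5 (15808 genes), and that of genes changed by 2 was 100% in each. The simulation gave every gene the same biological spread and held no outlying library or GC trend. These shares are therefore not the power for the ligands in these data.

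The ligands, the pathway lists and the marker lists were chosen with earlier results of these data known. The genes named are the 10 ligands, up to 3 called genes with the smallest p-value in each pathway list, Porcn, Wls, Axin2, Lef1 and Nkd1, the 2 genes most correlated with each called ligand, and Wnt genes within 100 kb. Krt18, Snx3, Ccnd1, Myc and Wnt7a were named after their values were seen. Ratios to the epithelial markers and list counts without E10.5 replicate 3 were chosen after seeing the data. The alternatives were other scalings and filters, DESeq2, the use of all 9 libraries in each comparison, a block for the replicate number, removal of each library's GC trend (lowess, span 0.3, on log2 CPM with a prior count of 2), other thresholds and each library left out. Depth was 16581009–20836804 counts per library, and no column was without a sample.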

Additional observations from a re-analysis of the deposited data

How the results depend on the processing

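A filter of at least 10 counts in every library removed Wnt3a, Wnt10a and Wnt10b wherever E10.5 was used, and left 7 ligands to test. The calls of the removed genes could therefore not be examined with it. The count of ligands upregulated in E11.5 vs. E10.5 was 2, and was 0 of the 7 with that filter (397 of 14065 genes). It became 1 with glmTreat (a test against a log2 fold change of 1, 112 of 15708 genes) or an adjusted p of at most 0.01. Leaving out 1 library in turn gave 1–2 ligands, and 234–772 of all genes. The 5 of E12.5 vs. E10.5 became 2 of the 7 with at least 10 counts in every library (1111 of 13912 genes). They became 3 with glmTreat (692 of 15899 genes) and 8 without a fold threshold (14.0% of genes). The 3 of E12.5 vs. E11.5 became 1 with glmTreat (127 of 15808 genes) and 5 without a fold threshold (7.61% of genes). The 8 of the 3 stages together became 5 of the 7 with at least 10 counts in every library (3668 of 13799 genes). They became 5 at an adjusted p of at most 0.01. On leaving out libraries they became 5–9 (3257–6275 genes), with 5 without E10.5 replicate 2 (3559 of 16750 genes). The 0 ligands whose steps differed became 1 (Wnt3a) over every gene with at least 1 count (700 of 30199 genes). On leaving out libraries they became 0–1 (27–437 genes). Among the single ligands, 566 of 601 alternative values kept their direction and call, 12 gained and 8 lost the call, and 15, all of values that had not passed, changed sign. For Wnt6 in E12.5 vs. E10.5 these were 0.054 with upper quartile normalization, 0.0010 with every gene of at least 1 count and 0.0058 with at least 10 counts in every library, and leaving out libraries gave −0.11 to 0.083. In E12.5 vs. E11.5 Wnt6 had −0.013 with the GC trend removed and −0.017 with the replicate block and the GC trend removed. Leaving out libraries gave −0.0079 to 0.39 for Wnt2b in E11.5 vs. E10.5, −0.0072 to 0.16 for Wnt3 in E12.5 vs. E11.5, and −0.24 to 0.19 and −0.75 to 0.36 for the difference between steps of Wnt7b and Wnt10a. The cause of these changes was not tested. The summed level kept its order of stages with library totals (41.2, 52.0 and 71.5) and with the deposited FPKM values (42.5, 51.0 and 68.4).

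Same-numbered libraries of different stages correlated by −0.15 to 0.22 in their deviations, and differently numbered ones by −0.22 to 0.22. The same-numbered pairs of E10.5 with E12.5 had 0.18, 0.070 and 0.22 for replicates 1, 2 and 3. Whether the number marks a shared batch was not tested. With the replicate number as a block, 2 ligands were upregulated in the first step, where 505 of 15708 genes were. In the second step 3 were (687 of 15808 genes). Over both steps 6 were upregulated (1613 of 15899 genes), and the call added was Wnt7b (log2 fold change 1.00). Over the 3 stages 8 passed (4524 of 16375 genes), and 0 differed between steps (205 of 16375 genes). The low counts at E10.5 (1–27 per library) limit the fold changes of Wnt3a, Wnt10a and Wnt10b.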
